A study of Homo sapiens with 2 samples.

Results

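The genes described here are 10 genes grouped as AP-1 and immediate-early genes, namely the FOS family (FOS, FOSB, FOSL1 and FOSL2), the JUN family (JUN, JUNB and JUND), EGR1, IER3 and MAFF. They were chosen by gene name from the 58735 genes of the deposited count table, before any filter on counts, and all 10 had at least 10 counts in at least 1 library, as did 17887 genes in all. The choice was made with earlier results of these data known, so comparisons with all genes are a description and no evidence of enrichment. The study compared the RNA of HCC cells with and without MAEL, a gene normally active in testis, with 1 library for each genotype, called MAEL WT and MAEL KO here. The cells are the line 8024, also called PLC/PRF/5 or Alexander cells, an epithelial line from a human liver tumour, and both libraries were made from 1 µg of total RNA. MAEL WT cells carried the wildtype genotype and are labelled as non-treated. MAEL KO cells had received a plasmid with Cas9 and an sgRNA against MAEL, were sorted by the plasmid's mCherry signal and were grown out as single clones. A loss of MAEL, the handling with plasmid, Cas9 and sorting, a difference between clones and a difference between cultures therefore cannot be told apart here.

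AP-1 is a dimer of basic leucine zipper (bZIP) proteins that binds short palindromic DNA elements, the TPA response element (TRE) and the cAMP response element (CRE). JUN proteins pair with each other or with FOS proteins, whereas FOS proteins need a JUN partner to bind DNA, and the make-up of the dimer sets its strength and its choice of sites. Most of these genes are transcribed within minutes of a growth factor, cytokine or stress signal, through the MAPK cascade and the serum response factor SRF, without new protein synthesis, and their mRNAs are short-lived. In liver, AP-1 is known for its part in regeneration and in the formation of HCC.

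All 10 genes had a lower normalised count in MAEL KO than in MAEL WT. The decrease was deepest for EGR1, a zinc finger factor, at 5.35-fold, and for FOSL1, the FOS family member also called FRA-1, at 4.49-fold. JUN and JUND differed the least, at 1.33-fold and 1.12-fold lower. The median log2 fold change of the 10 genes was -0.98, whereas that of all 17887 genes analysed was -0.04, and 52.0% of those genes lay below 0. The fold change is that of MAEL KO over MAEL WT after edgeR's TMM scaling, with 1 added to each normalised count. With 1 library per genotype no difference has a replicate check and no test was made. The 95% intervals in brackets come from exact Clopper-Pearson limits on how a gene's counts divide between the libraries. They cover counting error only and hold no variation between clones or cultures. PCR copies of a molecule cannot be recognised in reads without molecular identifiers, so the intervals may be too narrow even for counting error.

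The study required a log2 fold change beyond 2 together with an adjusted p value, and only the fold change is applied here. By it, 2 of the 10 genes, EGR1 and FOSL1, were under -2, a level that 5.64% of all genes analysed passed. None of the 10 was over 2, where 2.16% of all genes lay. At a threshold of 1, 5 of the 10 (EGR1, FOSL1, IER3, FOSB and FOS) were lower and 0 were higher, beside 16.5% and 10.2% of all genes. Since all 10 had over 100 counts in at least 1 library, the 12023 genes with that many counts are the closer background, and of those 2.35% were under -2 and 9.16% under -1. The counting interval lay wholly below 0 for 10 of the 10 genes and for 36.1% of the 12023. The 10 were chosen with earlier results known, so these shares describe them and test nothing. Scaling by total counts in place of TMM factors shifted the median of all genes to -0.31 and left all 10 genes lower, with the same count of 2 under -2. It moved the balance over all genes, with 1309 under -2 and 269 over 2 in place of 1008 and 387.

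**Figure D1:**
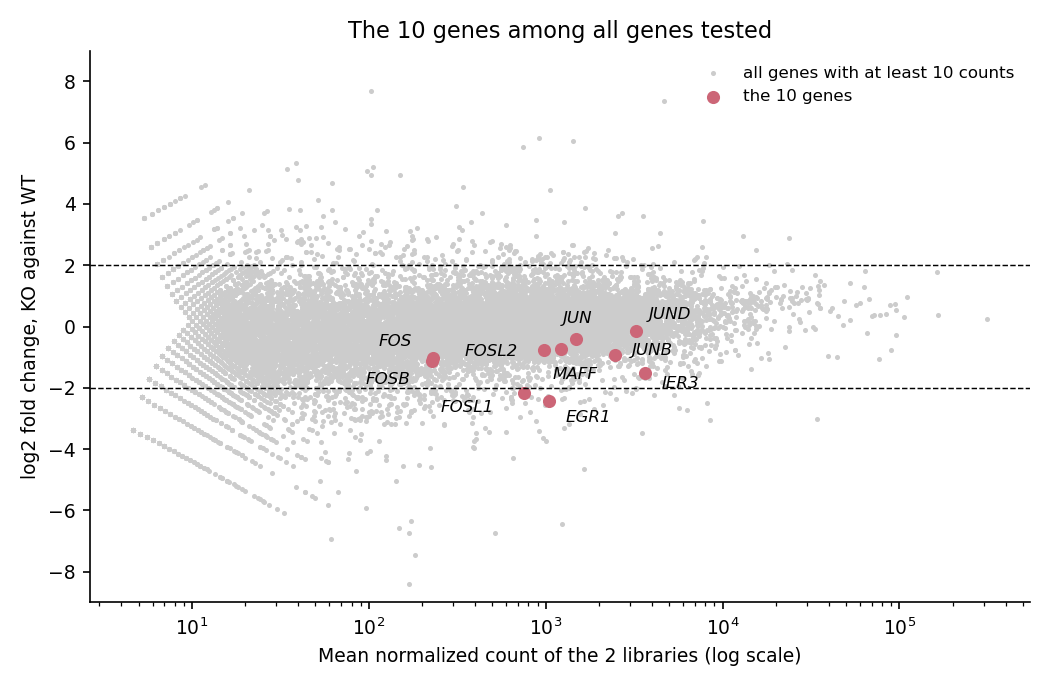
Log2 ratio of MAEL KO to MAEL WT (y axis) by the mean normalised count of the 2 libraries (x axis, log scale) for the 17887 genes analysed (grey) and the 10 genes (red), with dashed lines at 2 and -2. All 10 genes sit below 0, and EGR1 and FOSL1 lie under the lower dashed line at -2.42 and -2.16.

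The libraries held 19904136 counts for MAEL WT and 20833332 for MAEL KO, so that a floor of 3 counts per library stands for 0.151 and 0.144 CPM, the count scaled to the library total. MAEL itself, the targeted gene, had 1 count in MAEL WT and 0 in MAEL KO, at which depth its transcript was not detectable, so it could not be used to check the labels. All 10 hepatocyte markers (ALB, APOA1, TTR, HNF4A and others) were present and higher in MAEL KO, with a median log2 fold change of 1.28 and a summed level of 14020 CPM in MAEL WT and 27095 CPM in MAEL KO. Of 8 immune cell markers 2 reached 10 counts, the summed level was 5.02 CPM in MAEL WT and 1.73 CPM in MAEL KO, and the defining CD3E and MS4A1 were at 0 in both libraries. The 7 fibroblast and stellate cell markers that could be matched summed to 13.8 CPM and 8.50 CPM. Of these ACTA2 was at 0 in both, COL1A1 (92 counts in MAEL WT and 11 in MAEL KO) and PDGFRB (122 and 29) were lower, and COL3A1 (54 and 136) was higher. The 8 endothelial markers summed to 18.0 CPM and 19.6 CPM, nearly all of it PECAM1 (348 and 392 counts), with CDH5 at 4 and 15 and VWF at 1 and 0. The hepatocyte markers thus moved opposite to the 10 genes, and their part in the results below was not tested. A bulk library cannot tell a smaller number of cells that express a gene from less RNA of it per cell.

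Per length, the genes spanned a wide range of levels in both libraries. On the deposited FPKM scale, IER3 was highest in MAEL WT at 196, followed by JUND at 90.3, JUNB at 86.6, FOSL1 at 32.0, EGR1 at 27.4, JUN at 23.4, MAFF at 13.4, FOSL2 at 8.43, FOS at 4.72 and FOSB at 2.77. In MAEL KO the order was JUND at 80.7, IER3 at 68.1, JUNB at 45.8, JUN at 17.5, MAFF at 7.98, FOSL1 at 7.10, EGR1 at 5.11, FOSL2 at 4.92, FOS at 2.28 and FOSB at 1.25. FOS and FOSB were thus the lowest of the 10 in either library, and FOSL1 and EGR1 dropped below JUN and MAFF. Some neighbours in the order were not separated beyond counting error. In MAEL WT the level of JUND was 1.04 times that of JUNB (95% interval 0.994 to 1.09). In MAEL KO, MAFF was at 1.12 times FOSL1 (0.976 to 1.30) and EGR1 at 1.04 times FOSL2 (0.903 to 1.19). The other neighbouring pairs differed beyond counting error, and there was no spread between replicates to set them against. The listed length is 1 value per gene and was taken as exact. FOS has 10 annotated transcripts, FOSB 13 and MAFF 8, whereas JUN and JUNB have 1 each, so levels of different genes depend on that length.

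**Figure D2:**
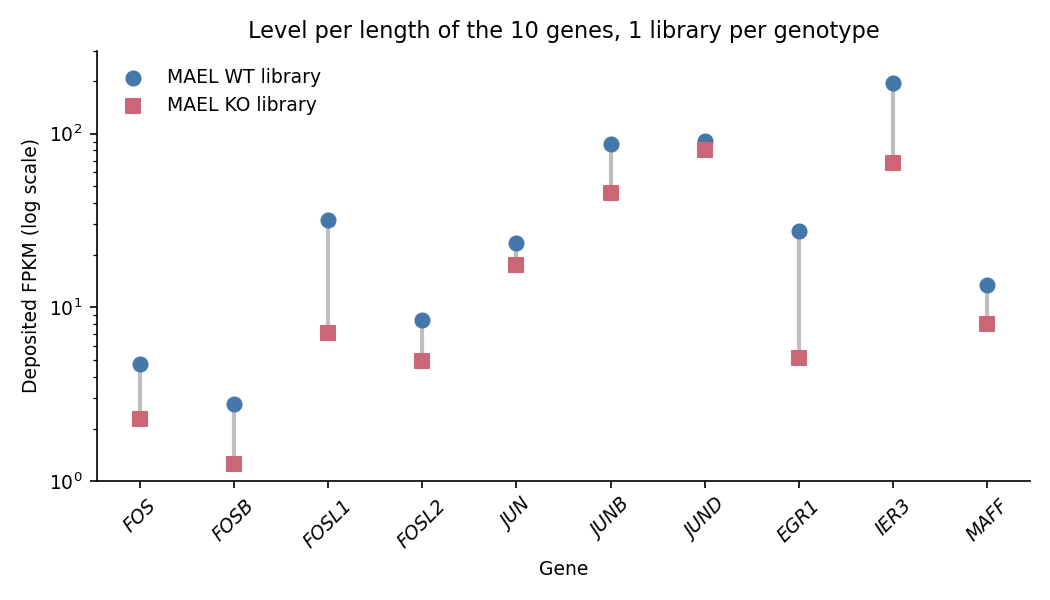
Deposited FPKM (y axis, log scale) of each of the 10 genes (x axis) in the MAEL WT and the MAEL KO library, 1 point per library. The MAEL KO point is the lower one for every gene, with the gap widest for EGR1 (27.4 and 5.11) and FOSL1 (32.0 and 7.10) and narrowest for JUND (90.3 and 80.7).

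In the FOS family, which supplies the AP-1 partner that cannot bind DNA by itself, all 4 genes were lower in MAEL KO, with a median log2 fold change of -1.09. FOSL1 (ENSG00000175592, GRCh38 chromosome 11, 65892049 to 65900573, minus strand) had 1320 counts in MAEL WT and 254 in MAEL KO. Its log2 fold change was -2.16 (-2.37 to -1.97), so the upper end of the interval lay above the threshold of -2. FOSL1 lacks the strong transactivation domain of FOS and is known as a factor of invasive carcinoma cells. FOSL2, or FRA-2 (ENSG00000075426, chromosome 2, 28392448 to 28417312, plus strand), also had 1320 counts in MAEL WT but 668 in MAEL KO, a log2 fold change of -0.77 (-0.91 to -0.64). The 2 genes thus started from the same count and separated, and the FOSL1 to FOSL2 count ratio was 1 in MAEL WT and 0.380 in MAEL KO (ratio of the ratios 0.380, 95% exact interval 0.322 to 0.449).

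FOS (ENSG00000170345, chromosome 14, 75278774 to 75282230, plus strand), the prototype immediate-early gene, had 334 counts in MAEL WT and 140 in MAEL KO. FOSB (ENSG00000125740, chromosome 19, 45467995 to 45475179, plus strand), a gene best known for its stable splice variant in neurons, had 337 and 132. Their log2 fold changes were -1.04 (-1.34 to -0.76) and -1.14 (-1.44 to -0.85). The count ratio of FOS to FOSB in MAEL KO was 1.07 times that in MAEL WT (0.799 to 1.43), a difference that was not detectable at this depth. FOS and FOSB have the fewest counts of the 10 genes and therefore the widest intervals.

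In the JUN family, whose members can bind DNA without a FOS partner, the log2 fold changes ran from -0.92 to -0.16, and none of the 3 genes passed -1. JUNB (ENSG00000171223, chromosome 19, 12791496 to 12793315, plus strand, 1 exon), a weaker activator than JUN that can oppose it, had 3449 counts in MAEL WT and 1579 in MAEL KO, a log2 fold change of -0.92 (-1.004 to -0.83). JUN (ENSG00000177606, chromosome 1, 58780788 to 58784327, minus strand, 1 exon), the main activating member and a substrate of the JNK kinases, had 1810 and 1175 counts, a log2 fold change of -0.41 (-0.52 to -0.31). JUND (ENSG00000130522, chromosome 19, 18279760 to 18281622, minus strand), which most cells express steadily, had 3679 and 2851 counts, a log2 fold change of -0.16 (-0.23 to -0.09). JUND had the smallest difference of the 10 genes. The count ratio of JUNB to JUN in MAEL KO was 0.705 times that in MAEL WT (0.641 to 0.776), so the members of the family differed in size beyond counting error.

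EGR1 (ENSG00000120738, chromosome 5, 138465490 to 138469315, plus strand), which binds GC-rich sites in promoters, had 1883 counts in MAEL WT and 304 in MAEL KO. Its log2 fold change of -2.42 (-2.60 to -2.25) was the lowest of the 10 and ranked 644 from the lowest of all 17887 genes. IER3 (ENSG00000137331, chromosome 6, 30743199 to 30744554, minus strand), a short immediate-early protein that modulates survival and ERK signalling, had 5818 and 1750 counts, the highest level of the 10 genes in MAEL WT. The log2 fold change of IER3 was -1.52 (-1.60 to -1.45). MAFF (ENSG00000185022, chromosome 22, 38200767 to 38216511, plus strand), a small MAF protein without a transactivation domain, had 1647 and 850 counts, and its log2 fold change was -0.74 (-0.87 to -0.62), close to that of FOSL2.

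**Figure D3:**
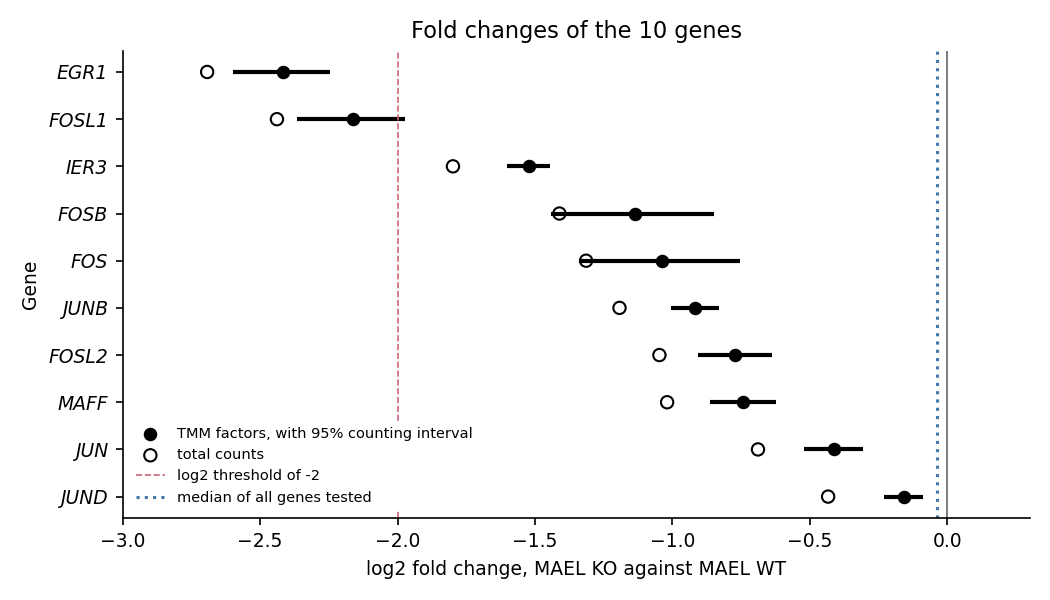
Log2 ratio of MAEL KO to MAEL WT (x axis) for each of the 10 genes (y axis). Filled points are scaled by TMM factors with bars for the 95% counting interval, open points are scaled by total counts, the dashed line marks -2 and the dotted line marks the median of all genes analysed at -0.04. Every point and bar lies below 0, from EGR1 at -2.42 to JUND at -0.16.

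The differences among the genes do not depend on how the libraries were scaled when each gene is set against JUND in the same library. The count ratio of EGR1 to JUND in MAEL KO was 0.208 times that in MAEL WT (95% exact interval 0.182 to 0.238), and that of FOSL1 to JUND 0.248 times (0.214 to 0.287). For IER3 the value was 0.388 (0.361 to 0.418), for FOSB 0.505 (0.408 to 0.624), for FOS 0.541 (0.438 to 0.665) and for JUNB 0.591 (0.547 to 0.639). FOSL2 at 0.653, MAFF at 0.666 and JUN at 0.838 were nearest to JUND. JUND had the smallest decrease, so ratios below 1 follow from the choice of reference, and what the values give is the spacing of the genes. EGR1 and FOSL1 were not separated from each other at this depth, since their ratio in MAEL KO was 0.839 times that in MAEL WT (0.697 to 1.01).

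The make-up of both families on the per-length scale differed accordingly. FOSL1 held 66.8% of the summed FOS family FPKM in MAEL WT and 45.6% in MAEL KO. FOSL2 went the other way, from 17.6% to 31.6%, and FOS from 9.84% to 14.7%, while both had less FPKM of their own. In the JUN family the share of JUND was 45.1% in MAEL WT and 56.1% in MAEL KO, and that of JUNB 43.3% and 31.8%, whereas JUN kept nearly the same share at 11.7% and 12.2%. The summed FPKM was 47.9 in MAEL WT and 15.6 in MAEL KO for the FOS family and 200.3 and 144.0 for the JUN family. JUN family transcripts thus outnumbered FOS family transcripts 4.18 to 1 per length in MAEL WT and 9.26 to 1 in MAEL KO. FPKM sums are of RNA, depend on the listed length of each gene and do not measure protein or dimers.

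**Figure D4:**
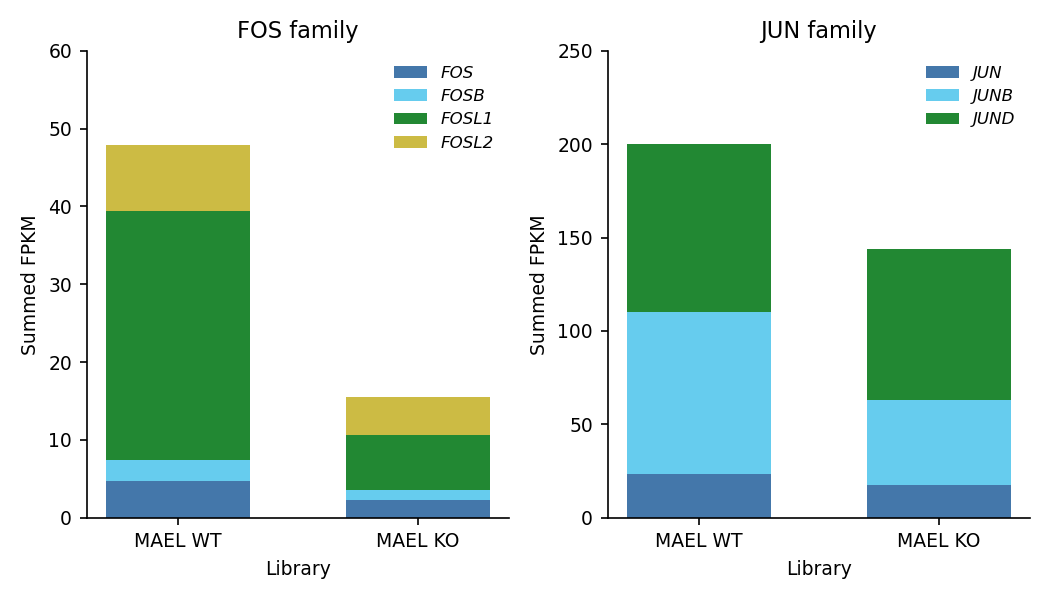
Summed FPKM (y axis, starting at 0) of the FOS family and the JUN family in each library (x axis), each bar split by gene. The FOS family bar goes from 47.9 in MAEL WT to 15.6 in MAEL KO with FOSL1 the largest segment in both, and the JUN family bar from 200.3 to 144.0 with JUND the largest.

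Sequences before the start site are shown for EGR1, the gene with the lowest fold change, for JUND, the one with the least, and for FOSB and JUNB, from different families, which share a TATA box. The windows reach from 250 bases before to 50 bases after the RefSeq start in GRCh38.p14, and 8 of the 10 genes have 9 such windows between them, MAFF having 2. FOSL1 and IER3 are without one here. The EGR1 sequence is 250 bases, chr5:138465229-138465478, plus strand, with 2 CArG boxes, the element bound by SRF, and a match to GCGNGGGCG, a form of the site EGR proteins bind, in capitals. The JUND sequence is 250 bases, chr19:18281623-18281872, minus strand, with the CRE (TGACGTCA) in capitals. For FOSB (chr19:45467896-45467995, plus strand) and JUNB (chr19:12791386-12791485, plus strand) the last 100 bases before the start are given, with the TATA box (TATAAA) in capitals.
EGR1: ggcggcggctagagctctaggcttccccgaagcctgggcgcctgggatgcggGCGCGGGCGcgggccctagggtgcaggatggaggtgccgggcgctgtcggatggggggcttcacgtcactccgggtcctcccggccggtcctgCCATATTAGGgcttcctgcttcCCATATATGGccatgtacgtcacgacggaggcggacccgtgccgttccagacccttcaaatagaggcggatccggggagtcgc
JUND: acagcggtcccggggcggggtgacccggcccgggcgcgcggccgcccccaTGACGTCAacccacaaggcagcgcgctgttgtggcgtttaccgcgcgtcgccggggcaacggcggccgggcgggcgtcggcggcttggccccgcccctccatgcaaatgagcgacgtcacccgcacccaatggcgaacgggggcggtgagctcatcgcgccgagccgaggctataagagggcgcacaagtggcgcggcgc
FOSB: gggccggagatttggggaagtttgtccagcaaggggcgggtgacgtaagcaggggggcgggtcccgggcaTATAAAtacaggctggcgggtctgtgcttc
JUNB: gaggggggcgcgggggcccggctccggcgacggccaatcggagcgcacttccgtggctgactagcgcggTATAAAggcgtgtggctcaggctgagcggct

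A match to these letters is a description and not a measured binding site. Only the windows were searched, so an element farther from the start of a gene would be missed. A gene without a match in its window may therefore still have the element outside it. CArG boxes, searched on both strands, were found in the window of EGR1 alone among the 8 genes, with their first letters at -105 and -83, and in 1.29% of the 35116 RefSeq windows. The exact EGR site GCGTGGGCG was in no window of the 8 genes and in 0.795% of all windows, and the looser GCGNGGGCG was in that of EGR1, at -198, and in 9.43% of all. The CRE, searched on both strands, was at -200 in JUND and at -54 in a window of MAFF, and in 1.85% of all windows. JUN held the related TGACATCA at -67, and the form TGACNTCA, which includes the CRE, was in 7.72% of all. The TRE, searched as TGANTCA on both strands, was found only in FOSL2, at position 4 after the start, and in 7.71% of all windows. TATAAA on the gene's strand was at -33 in FOS, -30 in FOSB and -31 in JUNB, and in 7.33% of all windows. The genes with a CRE, JUND and MAFF, had fold changes of -0.16 and -0.74, and those with TATAAA, FOS, FOSB and JUNB, had -1.04, -1.14 and -0.92. The windows of the 8 genes were rich in G and C, at 62% to 77% beside a median of 58.7% for all windows.

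Over other genes with a RefSeq window, the share under -2 was larger where the AP-1 element was present. Among 527 protein-coding genes with TGACTCA or TGAGTCA in the window, 9.68% had a log2 fold change under -2, beside 4.17% of the 10235 without it. With at least 100 counts these shares were 5.74% of 401 and 2.02% of 8570. The CRE differed from this, with 2.78% of 396 genes under -2 beside 4.51% of those without it. The TATA box, which is no AP-1 element, showed a share close to that of the TRE, at 9.37% of 587 genes beside 4.16% of 10175. Among genes with a TRE and no TATA box the share was 9.91% of 454, and among genes with neither it was 3.89% of 9721. The median log2 fold change was -0.15 with TGACTCA or TGAGTCA and 0.04 without, or -0.01 and 0.10 with at least 100 counts. For the TATA box it was 0.006 with and 0.04 without. The share over 2 was not computed, so a wider spread in both directions cannot be told from a shift. All these values come from 1 pair of libraries, with no test, and expression level and base composition of the windows were not matched.

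The 3′ UTRs of the 10 genes share the AU-rich pentamer ATTTA, an element known from unstable mRNAs. It was present in 10 of 10, read from the GENCODE transcript with the longest coding sequence, and in 65.2% of the 13666 other protein-coding genes analysed. The longer TTATTTATT was present in FOS, FOSL2 and MAFF, or 3 of 10, and in 7.64% of the others. Counted per kilobase of 3′ UTR, the pentamer was densest in IER3, at 8.11, and FOS, at 6.18, and sparsest in EGR1, at 0.808, with 8 of the 10 above the median of 1.42 for the other genes. The gene with the lowest fold change thus had the lowest density.

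Several of the genes overlap another gene, and the strand setting of the counting was not given in the sources used here, so reads of such a pair may not be separable. FOSB overlaps ERCC1 on the opposite strand (1203 counts in MAEL WT and 677 in MAEL KO), JUNB overlaps HOOK2 (871 and 592) and MAFF overlaps PLA2G6 (349 and 271). IER3 overlaps IER3-AS1, which had 0 and 2 counts, and FOSL2 overlaps FLJ31356 (1 and 2 counts) and AC104695.3 (0 in both). FOS, FOSL1, JUN, JUND and EGR1 overlap no listed gene.

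Genes beside the 10 on the chromosome did not follow them as a whole. The 114 protein-coding genes analysed that start within 250 kb of one of the 10 had a median log2 fold change of -0.08, and 63 of them were negative. Around EGR1 the 7 neighbours had a median of 0.19, around FOSL1 the 22 neighbours 0.12, and around IER3 the 16 neighbours -0.01, with no neighbour of IER3 as low as IER3. Around JUNB (25 neighbours) and JUND (12) the medians were 0.02 and 0.01. The neighbours of FOSB were the lower ones, with a median of -0.62 over 15 genes, 13 of them negative, followed by those of MAFF (8, median -0.30) and FOS (6, median -0.24), while JUN had 2, at a median of 0.61, and FOSL2 had 1, at -1.58.

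Of these 114 neighbours 10 were under -2 and 1 was over 2, beside 5.64% and 2.16% of all genes. Next to FOS, the AP-1 dimer partner JDP2 had 534 counts in MAEL WT and 105 in MAEL KO (-2.13). Next to FOSB lay GIPR (679 and 88, -2.72), KLC3 (177 and 37, -2.02), GPR4 (31 and 5, -2.23) and the creatine kinase gene CKM (30 and 3, -2.77, interval -5.47 to -1.43). Next to FOSL1 were the low-count genes CATSPER1 (34 and 5), OVOL1 (15 and 2, -2.25, interval -5.87 to -0.59) and GAL3ST3, which went from 15 to 0 counts and so was at least 4.32-fold lower against the floor of 3 counts per library. Next to JUND, the stress cytokine gene GDF15 had 65370 and 6975 counts (-3.02), and next to EGR1 REEP2 had 122 and 13 (-2.93). The gene over 2 was the tubulin gene TUBB beside IER3, with 7831 and 27264 counts (2.01).

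The bZIP proteins that can pair with FOS, JUN or MAF proteins were also mostly lower. Of 20 listed partners 16 were analysed, with 12 lower and 4 higher, a median of -1.30, 5 under -2 and 0 over 2, beside 5.64% and 2.16% of all genes analysed. Among the 12 with at least 100 counts, 3 were under -2 and 6 under -1, beside 2.35% and 9.16% of all such genes. Under total counts 14 were lower and 2 higher. ATF3, a stress-induced repressor, had 1170 counts in MAEL WT and 180 in MAEL KO, a log2 fold change of -2.48 (-2.72 to -2.26). MAFA (28 and 4 counts, -2.35, interval -4.57 to -1.08) and NFE2 (13 and 1, -2.66, interval -8.90 to -0.76) were as low but rest on few counts. At the other end stood NFE2L2, or NRF2, the regulator of the antioxidant response and a partner of small MAF proteins, at 2321 and 3706 counts (0.89). NRL (28 and 30 counts) was at 0.30, and NFE2L3 (424 and 404) was at 0.14, or -0.14 when scaled by total counts.

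Other immediate-early genes did not move together. Of 40 listed, 38 were analysed, with 23 lower and 15 higher and a median of -0.24. The pluripotency factor gene KLF4 (1160 counts in MAEL WT and 190 in MAEL KO, -2.39) and PPP1R15A, whose protein reverses the stress arrest of translation (4497 and 757, -2.36), were under -2 and DUSP5, an ERK phosphatase gene, was at -1.89 (2818 and 657). The opposite direction was seen for NFKBIZ, a nuclear NF-kB cofactor (303 and 923 counts, 1.81), ZFP36L2, which binds AU-rich elements (1297 and 2501, 1.16), and the orphan receptor NR4A1 (2624 and 4761, 1.07). The list as a whole had 2 genes under -2 and 0 over 2, beside 5.64% and 2.16% of all genes.

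The genes upstream mostly differed little. Of 34 listed genes of the MAPK cascade and SRF cofactors 33 were analysed, with 25 higher and 8 lower at a median of 0.22, which became -0.05 under total counts with 13 higher and 20 lower, so no direction can be given for the list. MAPK13, the p38-delta kinase, stood apart at 937 counts in MAEL WT and 73 in MAEL KO (-3.46, interval -3.84 to -3.13). RPS6KA2 had 19 and 2 counts (-2.57, interval -6.18 to -0.99), and MAP2K5 876 and 466 (-0.70). Higher in MAEL KO were MAP2K6 (124 and 366 counts, 1.76) and MAP2K3 (1142 and 1932, 0.97), the kinases that act on p38, and HRAS (485 and 800, 0.93). SRF itself, counted in the list of other immediate-early genes, had 2332 and 2324 counts.

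The list of feedback inhibitors had a median of -0.13 over 19 genes, with 10 lower and 9 higher. Under total counts the median was -0.41, with 15 lower and 4 higher, so the balance of the list depended on the scaling. SPRY3 (46 and 8 counts, -2.19), SPRED3 (179 and 34, -2.16) and the ERK phosphatase gene DUSP4 (2582 and 943, -1.24) were lowest. DUSP6, another ERK phosphatase gene, had 441 and 853 counts and was higher at 1.16, followed by NAB1, a corepressor of EGR proteins (1147 and 1547, 0.64), and SPRY1 (131 and 167, 0.56). The ERK phosphatase genes DUSP4 and DUSP6 thus lay on opposite sides of 0.

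Genes known as AP-1 targets were lower more often than higher, and a large part of the list was near or at 0. Of 30 listed 18 were analysed, with 12 lower and 6 higher, a median of -1.03, 6 under -2 and 0 over 2, beside 5.64% and 2.16% of all genes. Under total counts HMOX1, CDKN2A and MT2A turned negative, which made 15 lower and 3 higher. Of the other 12, 7 were at 0 in both libraries. PTGS2, or COX-2, had 390 counts in MAEL WT and 1 in MAEL KO (-7.45, interval -13.70 to -5.91). PLAU, the urokinase gene, had 85 and 3 (-4.24, interval -6.92 to -3.02), and the EGF receptor ligand AREG had 11742 and 1533 (-2.73). The targets that were higher in MAEL KO included CD44, the hyaluronan receptor gene (28 and 58 counts, 1.23), and the cyclin gene CCND1 (3035 and 4155, 0.66). This list was written with earlier results of these data known and is no independent evidence of a direction.

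**Figure D5:**
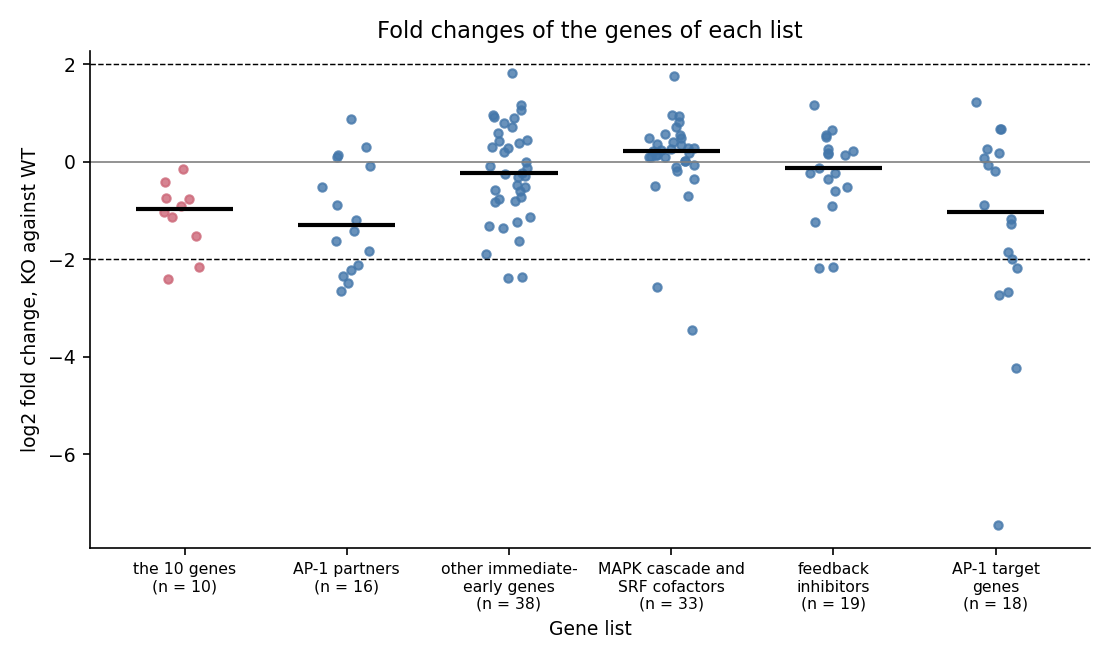
Log2 ratio of MAEL KO to MAEL WT (y axis) of the analysed genes of each list (x axis), 1 point per gene, spread sideways for legibility only, with a bar at the median and dashed lines at 2 and -2. The 10 genes (-0.98), AP-1 partners (-1.30) and AP-1 target genes (-1.03) have medians near -1, and the other lists between -0.24 and 0.22.

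The genes whose pair of levels was most like that of EGR1 were found among 13700 protein-coding genes by the distance between log2 normalised counts over the 2 libraries. The nearest was ADM2, at a distance of 0.127 with 1824 counts in MAEL WT and 330 in MAEL KO. BEX2 (1628 and 274) was at 0.258 and LOXL4 (1600 and 342) at 0.290. With 2 libraries this likeness says only that level and difference were near each other.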

How the data were processed

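RNA of 8024 cells had been sequenced on a HiSeq platform, with 1 library for each genotype. The authors deposited read counts per gene, whole numbers without normalization, and FPKM values, which could be rebuilt from the counts, the listed gene length and a library size rescaled between the libraries. All 4 columns of sample values were used. The submitters' processing notes name HISAT2 2.0.5, featureCounts 1.5.0-p3 and hg19, whereas the coordinates in the tables are GRCh38: 58724 of the 58735 genes have the identifier, start and end of GENCODE 29. Coordinates are therefore given on GRCh38. The strand setting of the counting is not given in the sources used here.

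Counts were scaled by TMM factors (edgeR 4.0.16, R 4.3.3). Fold changes used 1 added to normalised counts, and a gene was analysed if either library held 10 counts or more. No p-value was computed, because 1 library per genotype leaves no replicate error. Ratios of counts within a library have exact conditional 95% intervals. Alternatives were DESeq2 1.42.0 size factors, total counts, deposited FPKM with 0.01 added, 0.1 or 5 added to the normalised counts, no filter or at least 100 counts, protein-coding genes alone and a threshold of 1. Other steps used Python 3.11.15, NumPy 2.4.6, SciPy 1.17.1, pandas 2.3.3 and matplotlib 3.10.9. The scaling, fold change, counting interval and threshold of 2 were tested on simulated counts. The motif, 3′ UTR, neighbour, list and family share steps were not tested in this way.

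The 10 genes and the gene lists were chosen with earlier results of these data known. Named are all 10 genes, up to 3 genes at each end of each list, the 3 nearest to EGR1 and neighbours past a log2 fold change of 2, and an item that this rule covers is not reported here. SRF, the other bZIP genes, the TATA box, the looser motif forms and the 3′ UTR elements were chosen after values were seen. RGS5, listed as a stellate cell marker, was left out because its symbol stands on more than 1 gene. Promoters are RefSeq's (GRCh38.p14). The sequences of FOS, JUN, FOSL2 and MAFF are not printed, because their RefSeq start lies well inside the GENCODE gene. Identity between the proteins was not computed.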

Additional observations from a re-analysis of the deposited data

How the results depend on the processing

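Under 8 alternatives all 10 genes stayed below 0, and EGR1 and FOSL1 were the members under -2 in each that kept that threshold. Most of these could hardly have changed that outcome. The count filters and the restriction to protein-coding genes leave the value of each of the 10 as it is. DESeq2 factors and FPKM scale the libraries nearly as TMM does, and added counts barely move genes with this many counts. Total counts was the only distinct scaling. With total counts every log2 fold change was lower by the same scaling, from -2.69 for EGR1 to -0.43 for JUND, the median of the neighbouring genes was -0.36, and the median of the MAPK cascade and SRF cofactors turned from 0.22 to -0.0519. The median of all genes was 0.0665 with at least 100 counts and 0.0171 for protein-coding genes, beside -0.04. With 5 added to the counts, 513 of the 17887 genes passed -2 and 250 passed 2, in place of 1008 and 387. Among those under -2 were 3 of 16 AP-1 partners, 1 of 33 MAPK cascade genes and 1 of 19 feedback inhibitors. Without a count filter 1773 were lower and 1029 higher. With at least 100 counts 283 were lower, or 2.35% of 12023, and 185 higher. The lower ones then included 3 of 12 AP-1 partners, 1 of 31 MAPK cascade genes and 1 of 18 feedback inhibitors. At a threshold of 1 there were 2951 lower and 1827 higher genes, or 16.5% and 10.2% of all. Lower were 5 of the 10 genes, 9 of 16 AP-1 partners and 8 of 38 other immediate-early genes. The last of these shares, 21.1%, was near that of all genes. Higher were 3 of 38 other immediate-early genes, 1 of 33 MAPK cascade genes, 1 of 19 feedback inhibitors and 1 of 18 AP-1 targets. Each filter or threshold changes by its construction which genes count, and a larger added count shrinks the ratios of low genes. Family shares from normalised counts per kilobase are the same as from FPKM by arithmetic, which tests nothing. Leaving out a library was not possible with 1 library per genotype. No paired analysis was possible because there was 1 library per genotype. Depth limited the genes with under 10 counts, and FOS and FOSB had the widest intervals of the 10 genes.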

Other observations

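The wider bZIP family, as the transcription factor annotation in the deposited table gives it, held 44 analysed genes, 8 of them genes of the report. Of the 36 others, 25 were lower and 11 higher in MAEL KO, with a median log2 fold change of -0.49, 6 under -2 and 2 over 2, beside 5.64% and 2.16% of all genes analysed. Under total counts 31 were lower and 5 higher. The 36 include all 16 AP-1 partners analysed above, so this is no separate list. With TMM factors, those partners make up 5 of the 6 under -2, 12 of the 25 lower and 4 of the 11 higher. CREB3L1, a factor of the secretory pathway, was the lowest of the 44, with 418 counts in MAEL WT and 53 in MAEL KO (-2.75, 95% counting interval -3.21 to -2.35). DDIT3, or CHOP, the stress factor that pairs with C/EBP proteins, had 1122 and 242 counts (-1.999), and the small MAF genes MAFG (2899 and 938, -1.42) and MAFK (8517 and 3231, -1.19) both had a lower fold change than MAFF.

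The 3 highest bZIP genes are factors known from liver. HLF, a PAR bZIP factor of the circadian output, had 214 counts in MAEL WT and 1445 in MAEL KO (2.96, interval 2.76 to 3.18). TEF, of the same subfamily, had 72 and 253 (2.01), and CREB3L3, a membrane-bound hepatocyte factor, had 207 and 618 (1.78), whereas DBP, the third PAR factor, had 620 and 388 (-0.46). ATF4 and XBP1, the most abundant bZIP genes per length in both libraries, were at -0.24 and near 0. Among these 44 genes FOSL1 went from rank 10 to rank 23 by FPKM, while JUND went from 5 to 3 and JUNB from 7 to 6. These genes were chosen after their values were seen.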
